A study of Homo sapiens with 48 samples.

Results

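Line 92-1 is an established human uveal melanoma cell line, a tumour line of the pigment cells of the eye. It was treated with FHT-1015, which the labels describe as inhibiting both SMARCA4 and SMARCA2, or with DMSO as the negative control, for 4 or 24 h. The question taken here is how the effect of FHT-1015 at 24 h differed from its effect at 4 h. The measure is the time interaction, the log2 fold change of FHT-1015 against DMSO at 24 h minus that at 4 h. It uses 12 of the 48 samples of the series, 3 labelled biological replicates in each of the groups DMSO 4 h, DMSO 24 h, FHT-1015 4 h and FHT-1015 24 h. All 12 samples carry the genotype label WT, and the dose is not given in the labels. The other 36 samples hold the same design in the lines MP41 and MEL202 and a protein kinase C inhibitor, IDE196, in 92-1 with DMSO samples of its own.

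SMARCA4 and SMARCA2 are the alternative ATPases of BAF (SWI/SNF) complexes, which slide or evict nucleosomes and keep enhancers and promoters open to transcription factors. In cells of the melanocyte lineage, the factors SOX10 and MITF drive the genes of pigment synthesis and melanosome transport and hold the identity of the cell.

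The libraries held 11991337 to 24005016 reads in genes, and 15685 genes passed the filter on low counts. Values per library are CPM (counts scaled to a common library size) after TMM scaling, which is relative to the other genes of that library. The 92 spike-in controls listed in the files held 0 reads, so a change in total RNA per cell was not measured, and in bulk RNA fewer cells in a state and less RNA per cell cannot be told apart. The defining markers of the labelled cell type were present: the summed level of 8 melanocyte markers was 19080 to 22187 CPM in the 6 DMSO libraries. Of the markers of other cell types, the 9 leukocyte markers summed to at most 0.884 CPM, the 8 epithelial markers to at most 2.25 CPM and the 7 endothelial markers to at most 2.68 CPM in any library.

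The effect of FHT-1015 changed between the times for 7133 of the 15685 genes (45.5%) by edgeR's quasi-likelihood F-test of the interaction at a Benjamini-Hochberg adjusted p under 0.05 (called "called" below). For 3317 genes (21.1%) the 24 h effect was the higher and for 3816 (24.3%) the lower. At 4 h, 2016 genes (12.9%) were higher and 2615 (16.7%) lower with FHT-1015. These are 29.5% of genes. At 24 h, 60.6% of genes were called, 4580 (29.2%) higher and 4920 (31.4%) lower. The median absolute log2 fold change of the called genes was 0.62 at 4 h and 0.85 at 24 h.

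Nearly all of the change was between the FHT-1015 libraries of the 2 times. DMSO libraries of 24 h and 4 h differed in 54 genes (0.344%), FHT-1015 libraries in 9687 (61.8%). Of the 7133 genes with a called interaction, 6979 changed more between the times with FHT-1015 than with DMSO, and in 39 the DMSO change was itself called. The DMSO count fell to between 16 and 32 genes without DMSO 4 h replicate 1, 2 or 3, DMSO 24 h replicate 2 or 3, or replicate 2 of either FHT-1015 group. It was 101 with a replicate block, 150 with DESeq2, 243 without the low-count filter and 368 with limma-voom.

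Genes were sorted by their calls at 4 h, at 24 h and of the interaction. Early only genes were called at 4 h and not at 24 h: 338 were higher (2.15%) and 440 lower (2.81%). Late only genes were called at 24 h alone, 1921 higher (12.2%) and 2261 lower (14.4%). Sustained genes moved the same way at both times, 910 higher (5.8%) and 1481 lower (9.44%). Within the sustained genes the effect had grown by 24 h in 869 (5.54%), shrunk in 153 (0.975%) and showed no called difference in 1369 (8.73%). Reversing genes were called in opposite directions, 477 higher then lower (3.04%) and 440 lower then higher (2.81%), and the interaction was called in all 917. That call nearly follows from the sorting, because the interaction is the difference of the 2 effects. Without DMSO 4 h replicate 3 the higher-then-lower count was 282. For 2555 genes (16.3%) called at 1 time the interaction was not called, so their timing was not resolved.

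Of the 2016 genes higher at 4 h, 45.1% were still higher at 24 h, 31.2% were not called and 23.7% were lower. Of the 2615 genes lower at 4 h, 56.6% stayed lower, 26.5% were not called and 16.8% were higher. Of the genes higher at 24 h, 70.5% had not been called at 4 h, and of those lower at 24 h, 60.2%. Over the 15685 genes, which are not independent, Pearson's r between the 4 h and 24 h fold changes was 0.33 and Spearman's rank correlation 0.28. The 2 effects share no control library.

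**Figure D1:**
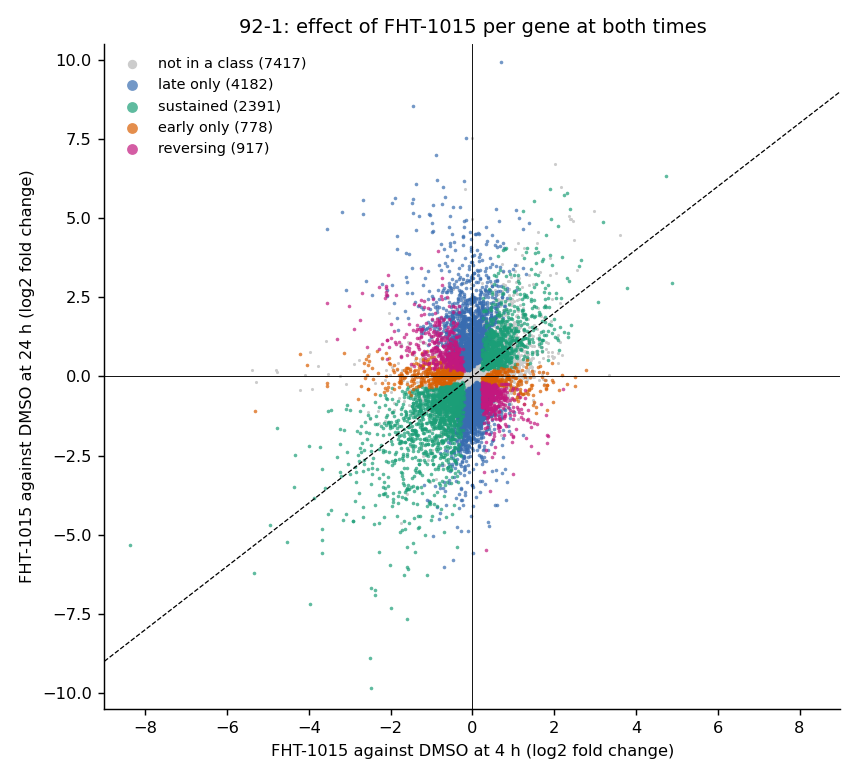
Each point is 1 of the 15685 genes tested, placed by its log2 fold change of FHT-1015 against DMSO at 4 h (x axis) and at 24 h (y axis) and coloured by time class, with the dashed line where both effects are equal. The 917 reversing genes lie at the upper left and lower right, and late only genes form a vertical band that spans more of the axis than the horizontal band of early only genes.

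The transcripts of the 2 inhibited ATPases were not lost. SMARCA4 (GRCh38 chromosome 19, 10960825 to 11079426, plus strand) was at 279, 303 and 308 CPM with DMSO and 342, 374 and 414 CPM with FHT-1015 at 4 h, and at 251, 279 and 286 CPM against 337, 327 and 308 CPM at 24 h. The treated libraries were above the DMSO libraries at each time, by 1.27-fold and 1.19-fold, and the interaction was not called (-0.09 ± 0.12 SE, edgeR adjusted p = 0.56). SMARCA4 left its class without a low-count filter and without DMSO 24 h replicate 1 or FHT-1015 24 h replicate 1 or 2. SMARCA2 (chromosome 9, 1980290 to 2193624, plus strand) was not called at 4 h and was 1.66-fold higher at 24 h, at 77.9, 67.1 and 78.0 CPM against 49.8, 41.2 and 43.6 CPM. Of 26 tested genes for BAF subunits, 6 were sustained higher (5.8% of all genes), among them ARID1B, ARID2, SS18 and DPF2. A further 5 were late only higher (12.2%), 4 late only lower (14.4%), 3 sustained lower (9.44%) and 8 not called at all (29.5%). The interaction was called higher in 6 and lower in 4, shares of the list near or below those of all genes. SMARCD2, a core subunit, had the largest called interaction of the list and was 1.82-fold lower at 24 h alone. DPF1 and DPF3, subunits of neuronal BAF complexes, were lower at both times, DPF3 by 2.74 and 1.80 on the log2 scale.

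SOX10 was lower by a similar amount at both times, while most pigment genes were slightly lower at 4 h and much lower at 24 h. The SOX10 gene (ENSG00000100146.17) lies on chromosome 22 (37970686 to 37987422, minus strand) and overlaps POLR2F. SOX10 was at 399, 459 and 451 CPM with DMSO at 4 h and 13.2, 11.6 and 18.2 CPM with FHT-1015. The levels at 24 h were 519, 585 and 590 CPM with DMSO and 22.9, 24.2 and 18.7 CPM with FHT-1015. Every treated library was far below every DMSO library at both times. The transcript was 30.7-fold lower at 4 h and 25.8-fold lower at 24 h, and the interaction of 0.25 ± 0.19 (SE, n = 3 per group) was not called (edgeR adjusted p = 0.307). It was called under limma-voom (0.47) and without FHT-1015 4 h replicate 3 (0.43), in both as a slightly smaller loss at 24 h.

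MITF (chromosome 3, 69739435 to 69968337, plus strand) behaved differently from SOX10. At 4 h it was at 370, 378 and 358 CPM with DMSO and 354, 298 and 236 CPM with FHT-1015, a difference that was not called (-0.32 ± 0.13 SE, edgeR adjusted p = 0.072). At 24 h it was at 458, 346 and 384 CPM against 131, 117 and 131 CPM, 3.13-fold lower, with no overlap. MITF left the late only class without a low-count filter, under limma-voom, with a replicate block, in a joint fit with the IDE196 samples, and without DMSO 24 h replicate 1 or FHT-1015 4 h replicate 1.

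Of 24 tested genes of pigmentation and melanocyte differentiation, 15 were sustained lower against 9.44% of all genes, and 12 of these 15 had grown by 24 h. A further 5 were late only lower (14.4% of all genes), 1 early only lower (2.81%), 1 reversing from higher to lower (3.04%), 1 late only higher (12.2%; GPNMB, a melanosomal and lysosomal glycoprotein) and 1 not called (MC1R, the melanocortin receptor). The median log2 fold change of the 24 was -0.45 at 4 h and -2.46 at 24 h, where the medians of all genes tested were 0.0071 and -0.00082.

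TYR encodes tyrosinase, the rate-limiting enzyme of melanin synthesis, and TYRP1 a related melanosomal enzyme. Their promoters are shown because each holds, upstream of the start, the M-box core TCATGTG that MITF is known to bind. The sequences are from RefSeq (GRCh38.p14, plus strand), the 250 bases before the first listed start, with the M-box core in capitals. The sequence of TYR lies at chr11:89177625-89177874 and that of TYRP1 at chr9:12693135-12693384.
TYR: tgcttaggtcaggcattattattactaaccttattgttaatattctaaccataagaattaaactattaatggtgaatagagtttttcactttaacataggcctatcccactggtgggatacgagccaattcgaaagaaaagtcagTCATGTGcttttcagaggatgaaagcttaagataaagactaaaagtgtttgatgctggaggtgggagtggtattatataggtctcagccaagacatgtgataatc
TYRP1: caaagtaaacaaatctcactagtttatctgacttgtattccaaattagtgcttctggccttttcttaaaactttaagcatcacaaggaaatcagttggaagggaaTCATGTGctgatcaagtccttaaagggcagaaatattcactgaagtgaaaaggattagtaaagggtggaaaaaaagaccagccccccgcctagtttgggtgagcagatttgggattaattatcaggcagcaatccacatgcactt
The core begins 105 bases before the start in TYR and 145 bases before it in TYRP1. On either strand, 2.92% of the 35116 promoters of the table, in windows of 300 bases, hold it. TYRP1 was chosen for printing after its values were seen. Among the genes of the lists, the core is also in the promoters of GPR143, SLC24A5, CTSA and CENPA, which were called lower at 24 h, of GPNMB, SPRY1, SPRY2 and ROBO1, which were called higher, and of ZEB2, which was not called at that time. A match is a description of these letters and not a measured binding site.

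TYR (ENSG00000077498.9) was at 326, 340 and 281 CPM with DMSO and 242, 232 and 200 CPM with FHT-1015 at 4 h. By 24 h the levels were 413, 324 and 304 CPM with DMSO and 16.4, 15.5 and 18.7 CPM with FHT-1015. The groups did not overlap at either time, and the loss went from 1.40-fold to 20.5-fold (interaction -3.87 ± 0.18 SE, edgeR adjusted p = 1.28e-09). TYRP1 was lower by 0.35 at 4 h and 1.25 at 24 h on the log2 scale. DCT, the third melanin synthesis enzyme of the family, was not called at 4 h. At 24 h it was at 8.18, 5.92 and 5.98 CPM with DMSO, and no FHT-1015 library was above 3 reads, so it was at least 32.5-fold lower.

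Among the melanosome genes, PMEL, which forms the fibrils on which melanin is laid down, was late only lower with log2 fold changes of -0.28 and -3.55. MLANA went from -0.41 to -2.75, the pigment transporters SLC45A2 and OCA2 from -0.63 each to -2.88 and -3.34. TRPM1, a melanocyte ion channel, was 1.26-fold higher at 4 h and 44.6-fold lower at 24 h. Its libraries read 81.2, 82.5 and 72.8 CPM with DMSO and 94.2, 117 and 87.9 CPM with FHT-1015 at 4 h, then 118, 112 and 98.7 CPM against 1.98, 2.54 and 2.79 CPM. TRPM1 left the reversing class when DMSO 4 h replicate 1, 2 or 3 or FHT-1015 4 h replicate 2 was left out, and in the joint fit of 92-1. ERBB3, a neuregulin receptor expressed in neural crest derivatives, was lower by 2.68 at 4 h and 2.98 at 24 h with no called difference.

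The 8 markers used to check the cell type belong to the same set of genes. Their summed level was 15232 to 17163 CPM with FHT-1015 at 4 h and 4725 to 5208 CPM at 24 h.

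Of 18 tested lineage transcription factors, 4 were sustained higher (5.8% of all genes), 3 sustained lower (9.44%), 3 late only higher (12.2%), 3 late only lower (14.4%) and 1 reversing in each direction. The late only counts are near the shares of all genes. NR2F1, an orphan nuclear receptor of the neural crest, was at 3.13, 2.76 and 3.69 CPM with DMSO and 3.96, 5.44 and 6.91 CPM with FHT-1015 at 4 h. At 24 h it was at 3.31, 3.45 and 3.76 CPM with DMSO and 65.5, 55.6 and 45.5 CPM with FHT-1015, a rise of 15.8-fold that followed 1.68-fold at 4 h. NR2F1-AS1 overlaps it on the other strand, and the counts do not use strand. NR2F1 left the sustained class without DMSO 4 h replicate 2 or FHT-1015 4 h replicate 3. LEF1, the Wnt pathway factor, was not called at 4 h and 3.23-fold higher at 24 h. ALX1 was higher by 1.59 and then 3.20, FOXD3, a factor of neural crest and melanoblasts, by 1.71 and then 0.80 on the log2 scale. PAX3 was the lineage factor with no call, with log2 fold changes of -0.03 and 0.07.

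SNAI2, a zinc finger repressor of the neural crest, was the lineage factor that reversed from higher to lower. It was at 225, 224 and 187 CPM with DMSO and 588, 586 and 530 CPM with FHT-1015 at 4 h, and at 268, 192 and 182 CPM against 78.6, 68.4 and 65.0 CPM at 24 h. The treated libraries were thus above all DMSO libraries at 4 h (2.68-fold) and below all of them at 24 h (3.03-fold), an interaction of -3.02 ± 0.19 (SE, edgeR adjusted p = 1.41e-08). ZEB1, an E-box repressor, went the other way, with -0.84 at 4 h and 0.64 at 24 h.

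**Figure D2:**
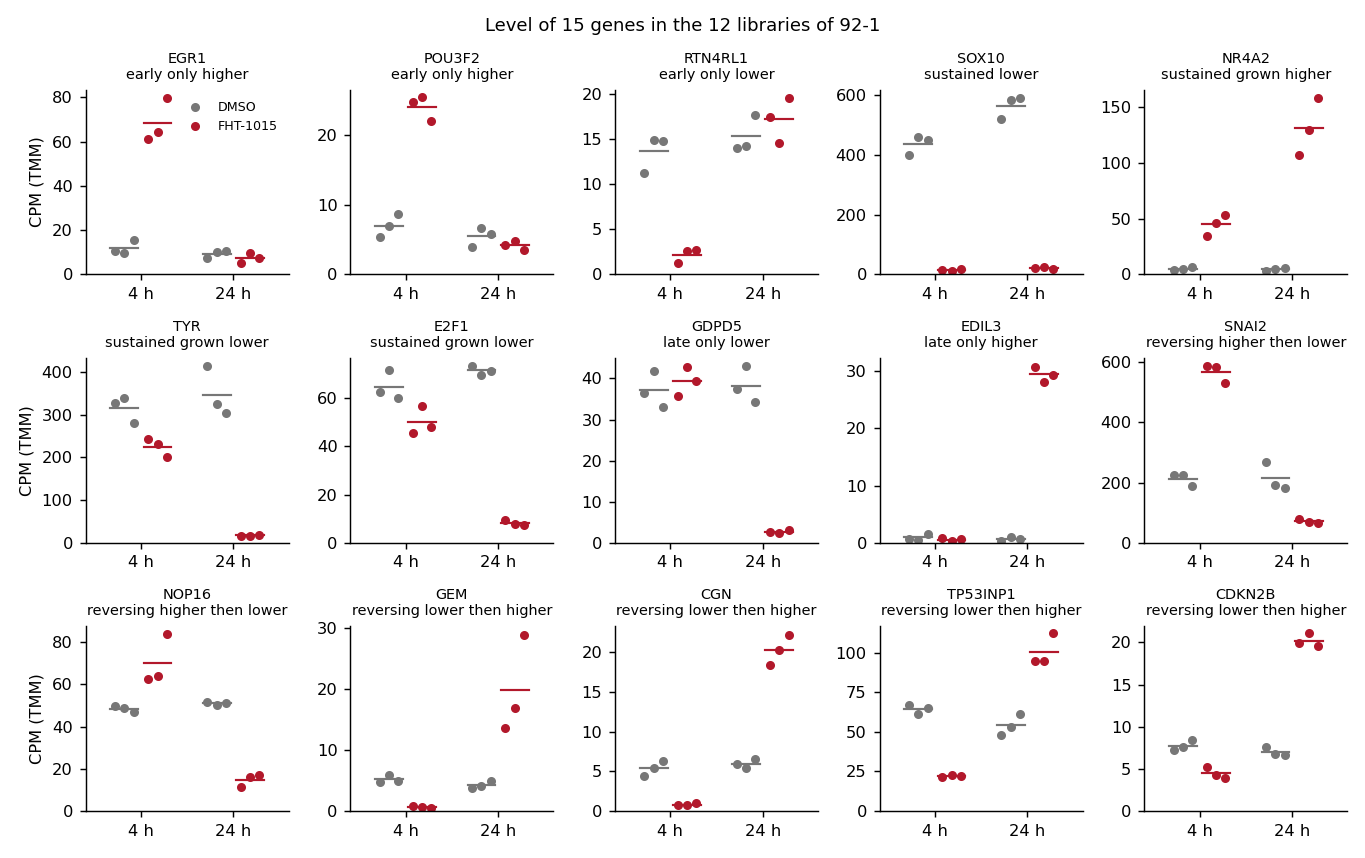
Each panel shows 1 gene in the 12 libraries, in TMM-scaled CPM from 0, with DMSO in grey and FHT-1015 in red, points for the 3 replicates and a bar for their mean. SOX10 is near 0 with FHT-1015 at both times, TYR and E2F1 drop mainly at 24 h, and in the panels of SNAI2, NOP16, GEM, CGN, TP53INP1 and CDKN2B the red points change sides of the grey ones.

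Transient rises included immediate early genes, which respond to signals without new protein synthesis. EGR1 (chromosome 5, 138465490 to 138469315, plus strand), a zinc finger factor of the growth factor response, was at 10.7, 9.75 and 15.7 CPM with DMSO and 61.4, 64.6 and 79.8 CPM with FHT-1015 at 4 h. The 24 h libraries read 7.26, 10.1 and 10.4 CPM with DMSO and 5.39, 9.51 and 7.62 CPM with FHT-1015, so that the groups overlapped. The 5.70-fold rise at 4 h was followed by a log2 fold change of -0.30 ± 0.22 (SE) that was not called, and the interaction was -2.81 (edgeR adjusted p = 2.10e-06). Of 26 tested immediate early genes, 14 were higher at 4 h, against 12.9% of all genes, and 13 at 24 h, against 29.2%. In 8 the rise was sustained (5.8% of all genes), 2 were early only higher (2.15%), EGR1 and NR4A3, and 2 late only higher, ATF3 and JUND, a smaller share than the 12.2% of all genes.

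NR4A2, an orphan nuclear receptor of the immediate early group, rose and went on rising. It was at 3.63, 4.51 and 6.65 CPM with DMSO and 34.8, 46.5 and 53.3 CPM with FHT-1015 at 4 h, and at 3.45, 4.69 and 5.42 CPM against 107, 130 and 158 CPM at 24 h. The rise was 9.12-fold and then 29.5-fold. FOSB and EGR4 were higher by 1.69 and 1.76 at 4 h and by 1.74 and 2.19 at 24 h, with no called difference. ATF3, a stress-induced bZIP factor, showed no difference at 4 h (-0.01) and was 5.52-fold higher at 24 h. BTG2, an antiproliferative gene induced by p53, was early only lower, with -1.74 at 4 h and -0.14 at 24 h.

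Of 18 tested genes of MAPK feedback and output, 3 were sustained higher (5.8% of all genes) and 4 sustained lower (9.44%). There were 2 late only in each direction, no more than the shares of all genes (12.2% higher and 14.4% lower). DUSP2, a nuclear ERK phosphatase, was at 15.1, 17.7 and 16.6 CPM with DMSO and 17.2, 19.3 and 23.0 CPM with FHT-1015 at 4 h, a difference that was not called. At 24 h the levels were 16.7, 18.4 and 20.1 CPM against 2.25, 3.17 and 3.20 CPM, 6.37-fold lower. PHLDA1 reversed, from 1.39-fold higher to 5.86-fold lower, and its DMSO level itself differed between the times (0.47 on the log2 scale, edgeR adjusted p = 0.0264). SPRY1, a feedback inhibitor of receptor tyrosine kinase signalling, was higher by 1.56 and then 4.07. CCND1, the D-type cyclin that lies downstream of the pathway, was lower by 1.39 and then 1.86.

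Beside EGR1, the named early only higher genes, which lie outside these lists, were UBASH3B, POU3F2 and RHEBL1. POU3F2 (BRN2), a POU-domain factor of neural and melanoma cells, was at 5.31, 6.89 and 8.65 CPM with DMSO and 24.7, 25.4 and 22.1 CPM with FHT-1015 at 4 h. Levels at 24 h were 4.00, 6.66 and 5.79 CPM against 4.16, 4.83 and 3.55 CPM, within the range of the DMSO libraries but for FHT-1015 replicate 3. UBASH3B was 4.35-fold higher and RHEBL1 2.52-fold higher at 4 h, and neither was called at 24 h. UBASH3B left the class without DMSO 24 h replicate 2, POU3F2 without DMSO 24 h replicate 1, and RHEBL1 without DMSO 24 h replicate 1 or FHT-1015 24 h replicate 3.

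The named transient losses, among genes with a mean of at least 5 CPM, included RTN4RL1, a Nogo receptor-like protein of the neuronal surface. It was at 11.3, 14.9 and 14.9 CPM with DMSO and 1.25, 2.65 and 2.70 CPM with FHT-1015 at 4 h, and at 14.1, 14.3 and 17.7 CPM against 17.5, 14.6 and 19.6 CPM at 24 h. A 6.33-fold loss was thus gone at 24 h (0.17 ± 0.19 SE, not called), where the groups overlapped. KLHL26 was 6.17-fold lower at 4 h, PRICKLE1, a planar cell polarity protein, 6.65-fold, and PPM1K, the mitochondrial phosphatase of branched-chain amino acid breakdown, 3.03-fold. PRICKLE1 overlaps PPHLN1, and left the class without FHT-1015 24 h replicate 3, as PPM1K did without FHT-1015 24 h replicate 1.

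Ribosome biogenesis was the list with the largest share of genes that rose and then fell. Of its 24 tested genes, 10 were reversing from higher to lower against 3.04% of all genes, 12 were late only lower against 14.4%, and FBL and NPM1 were not called. None was lower at 4 h and none higher at 24 h. The interaction was called lower in 22 of 24 against 24.3% of all genes, and the median log2 fold change went from 0.21 to -1.04. RRP9, which binds the U3 small nucleolar RNA, went from 0.78 to -1.32, RRP12, a pre-ribosome export factor, from 0.67 to -0.70, and POLR1B, a subunit of RNA polymerase I, from 0.36 to -0.94. LYAR, a nucleolar factor, had the lowest value at 24 h, -1.9995, after -0.17 at 4 h.

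NOP16, a nucleolar assembly factor of the large subunit, was at 49.7, 48.9 and 46.8 CPM with DMSO and 62.5, 63.9 and 84.0 CPM with FHT-1015 at 4 h, and at 51.8, 50.2 and 51.1 CPM against 11.1, 16.2 and 17.0 CPM at 24 h. The groups did not overlap at either time, and they changed sides. NOP16 overlaps ARL10 and HIGD2A, and its interaction of -2.32 was -0.77 when the 2 stranded columns were summed, with the class unchanged. MYC, the transcription factor that drives many ribosome biogenesis genes, was also reversing, with 0.53 ± 0.14 at 4 h and -1.88 ± 0.14 at 24 h (SE, n = 3 per group). KLF10 went from 0.79 to -1.26.

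Genes that rose and then fell outside that list included SNAI2, RGS16 and SNX10. RGS16, which speeds up the GTPase of G proteins, was 2.19-fold higher and then 2.17-fold lower, and SNX10, a sorting nexin of endosomes, 2.10-fold higher and then 3.14-fold lower. In these 3 genes the treated libraries lay on the opposite side of the DMSO libraries at the 2 times.

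The promoters of the higher-then-lower genes were looked at for the canonical E-box CACGTG, which reads the same on both strands and is known to bind MYC and MITF, among other basic helix-loop-helix factors. A promoter was found in the RefSeq table for 385 of the 477 genes (80.7%), and 83 of these (21.6%) hold the motif. It is in 2548 of all 35116 promoters of the table (7.26%), which include genes not expressed here. Of all genes tested and of every other class, fewer than 80% had a promoter in the table, so the check is void for them, the share among expressed genes is not given, and the motif is not shown to be particular to this class. As an example chosen after its values were seen, SC5D, a sterol desaturase of the cholesterol list, was reversing with 0.45 and -0.51, and its 250 bases before the start at chr11:121292521-121292770 (GRCh38.p14, plus strand, RefSeq) hold the E-box, in capitals, 131 bases before the start.
SC5D: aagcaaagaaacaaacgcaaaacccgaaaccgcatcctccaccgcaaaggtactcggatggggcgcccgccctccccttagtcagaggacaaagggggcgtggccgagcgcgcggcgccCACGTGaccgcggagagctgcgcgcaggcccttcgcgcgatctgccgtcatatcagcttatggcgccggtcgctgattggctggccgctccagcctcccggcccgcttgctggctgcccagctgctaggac

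Genes of DNA replication were lower at 24 h without exception, and most of that loss came after 4 h. Of 25 tested, all were lower at 24 h against 31.4% of all genes, and 14 were late only lower (14.4% of all genes), 10 sustained lower and 1 reversing, POLE2. The median was -0.32 at 4 h and -2.26 at 24 h. E2F1, the factor that activates S phase genes, was at 62.5, 71.9 and 60.1 CPM with DMSO and 45.8, 57.0 and 48.0 CPM with FHT-1015 at 4 h, and at 73.5, 69.8 and 71.5 CPM against 9.48, 7.85 and 7.22 CPM at 24 h. It was 1.29-fold and then 8.76-fold lower, and left the sustained class without DMSO 4 h replicate 2 or FHT-1015 4 h replicate 1. CDC6, a licensing factor of replication origins, went from -0.79 to -3.44 and MCM10 from -0.18 to -2.94. CCNE1, the cyclin of S phase entry, was at -0.92 at both times.

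Genes of mitosis moved less. Of 22 tested, 21 were lower at 24 h (31.4% of all genes) and 2 at 4 h, a smaller share than the 16.7% of all genes, and 14 were late only lower (14.4%). The median went from -0.14 to -0.88. AURKB, the kinase of the chromosomal passenger complex, was at 60.5, 59.7 and 54.9 CPM with DMSO and 58.2, 69.3 and 67.1 CPM with FHT-1015 at 4 h, and at 56.5, 61.3 and 50.1 CPM against 21.1, 18.3 and 11.1 CPM at 24 h, 3.34-fold lower. PLK1 was lower by 0.49 at both times. The difference between the 2 cell cycle lists was not tested.

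Some genes that restrain the cell cycle or belong to the p53 response were lower at 4 h and higher at 24 h, though most members of these lists were not. Of 12 tested CDK inhibitors, D cyclins and pocket proteins, 8 were lower at 4 h against 16.7% of all genes. By 24 h, CDKN2B, CDKN1B and RB1 had reversed to higher (2.81% of all genes reversed this way). CDKN2B (chromosome 9, 22002903 to 22009363, minus strand), which encodes the inhibitor p15 of the D cyclin kinases, was at 7.21, 7.58 and 8.47 CPM with DMSO and 5.17, 4.29 and 3.90 CPM with FHT-1015 at 4 h. By 24 h CDKN2B was at 7.53, 6.79 and 6.65 CPM with DMSO and 19.99, 21.1 and 19.6 CPM with FHT-1015, an interaction of 2.32 ± 0.19 (SE, edgeR adjusted p = 1.80e-07). CDKN1B went from -0.52 to 0.47 and RB1, the retinoblastoma protein, from -0.47 to 0.99. CDKN1A, which encodes p21, was lower at both times, by 1.27 and 0.95.

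Of 21 tested p53 targets, 13 were lower at 4 h (16.7% of all genes) and 1 higher, PLK2 (12.9%), and 9 were lower (31.4%) and 4 higher (29.2%) at 24 h. Of these targets, 5 were early only lower (2.81% of all genes), 6 sustained lower (9.44%) and 2 reversing to higher, TP53INP1 and RRM2B. The median went from -0.38 to -0.14. TP53INP1, a stress-induced protein of p53 and autophagy, was at 67.3, 61.4 and 64.9 CPM with DMSO and 21.5, 22.9 and 21.9 CPM with FHT-1015 at 4 h. TP53INP1 was at 24 h at 48.0, 53.2 and 61.3 CPM with DMSO and 94.8, 94.7 and 112 CPM with FHT-1015, above all DMSO libraries. MDM2, the ubiquitin ligase of p53 and its target gene, was called at neither time, with -0.13 and -0.03.

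In the BCL2 family, BCL2L11 (BIM), which promotes apoptosis, was the reversing gene among 15 tested. It was at 10.3, 11.3 and 11.5 CPM with DMSO and 7.38, 7.51 and 5.47 CPM with FHT-1015 at 4 h, and at 9.65, 8.08 and 9.37 CPM against 25.1, 32.6 and 37.5 CPM at 24 h, from 1.61-fold lower to 3.51-fold higher. MIR4435-2HG overlaps it. BMF, another BH3-only member, was late only higher by 1.60, and BCL2 itself was lower by 1.23 and 1.25 at the 2 times. The other members that promote apoptosis were mixed. BBC3 (PUMA) was 2.57-fold higher at 24 h, BOK was 1.48-fold higher at 4 h alone, and BAD was called at neither time. Lower were BIK by 8.81-fold and then 3.24-fold, HRK by 5.47-fold and then 7.36-fold, while BAX, BAK1, BID and PMAIP1 were called lower at 24 h and not at 4 h. At 24 h, 7 of the 15 were lower (31.4% of all genes) and 3 higher (29.2%).

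YAP/TEAD targets, genes of the Hippo pathway's transcriptional output, were the list with the largest share of genes going from lower to higher. Of 16 tested, 10 were lower at 4 h (16.7% of all genes) and 8 higher at 24 h (29.2%). There were 6 reversing from lower to higher against 2.81% of all genes: CTGF, CYR61, F3, LATS2, ARHGEF17 and PTPN14. The median went from -0.58 to 0.31. CTGF, a secreted matricellular protein, was at 4.69, 4.88 and 2.72 CPM with DMSO and 0.876, 1.68 and 0.440 CPM with FHT-1015 at 4 h, and at 2.20, 0.925 and 2.46 CPM against 5.32, 4.28 and 3.55 CPM at 24 h. These levels are low, and CTGF left the class without DMSO 24 h replicate 2. F3 had no treated library above 3 reads at 4 h and was at least 2.77-fold lower there.

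Further genes that fell and then rose, named for their changes at both times and not as members of a list, were GEM, SALL2, CGN and FAM84B. GEM, a small GTPase that restrains calcium channels, was at 4.75, 5.83 and 4.96 CPM with DMSO and 0.751, 0.619 and 0.503 CPM with FHT-1015 at 4 h. By 24 h GEM was at 3.81, 4.13 and 4.93 CPM with DMSO and 13.6, 16.9 and 28.9 CPM with FHT-1015. The change from 8.07-fold lower to 4.65-fold higher gave an interaction of 5.23 ± 0.39 (SE, edgeR adjusted p = 8.54e-08). CGN (chromosome 1, 151510510 to 151538692, plus strand), the tight junction protein cingulin, was at 4.41, 5.35 and 6.35 CPM with DMSO and 0.751, 0.707 and 0.943 CPM with FHT-1015 at 4 h, and at 5.88, 5.43 and 6.59 CPM against 18.4, 20.3 and 22.2 CPM at 24 h. SALL2 was 4.38-fold lower and then 5.52-fold higher, and FAM84B 3.98-fold lower and then 3.17-fold higher.

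**Figure D3:**
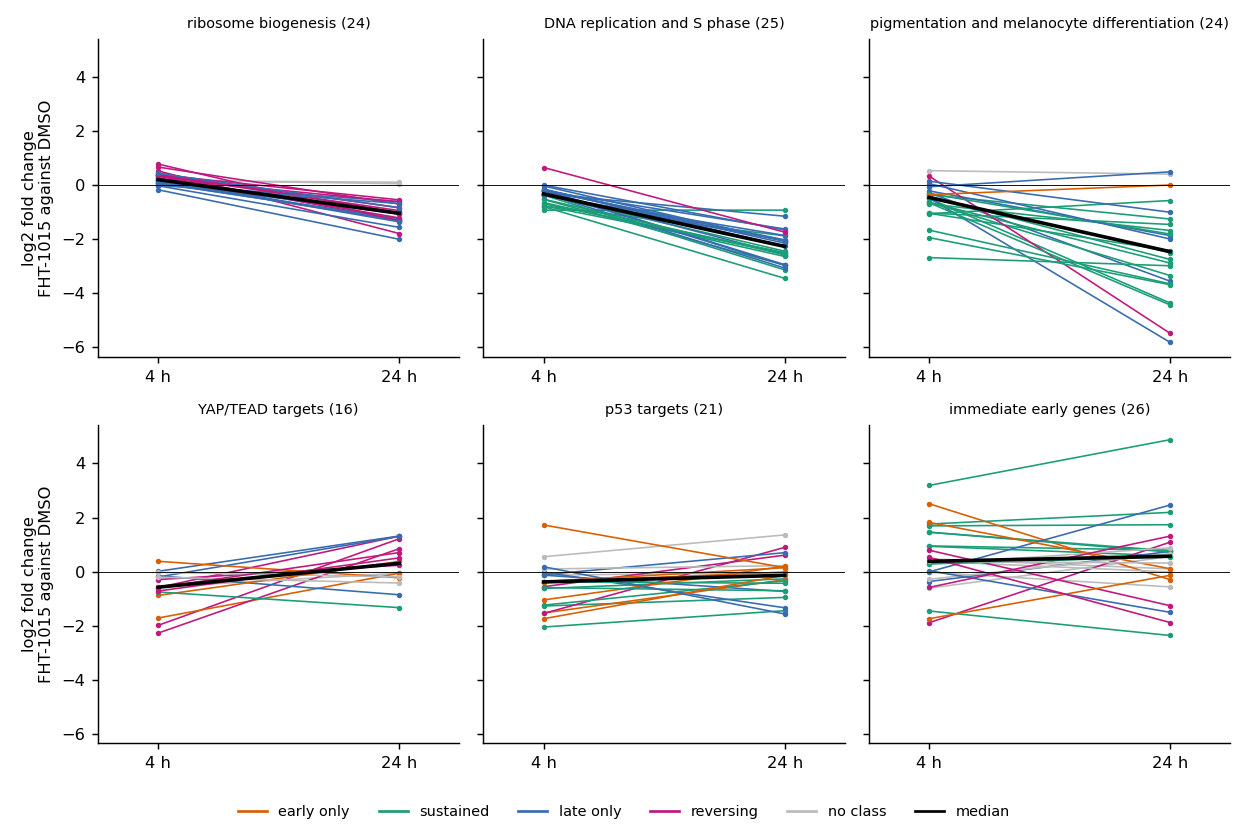
Each line is 1 tested gene of a list, from its log2 fold change of FHT-1015 against DMSO at 4 h to that at 24 h, coloured by time class, with the list's median in black. The medians of ribosome biogenesis (0.21 to -1.04), DNA replication (-0.32 to -2.26) and pigmentation (-0.45 to -2.46) go down, and that of YAP/TEAD targets (-0.58 to 0.31) goes up.

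The late only higher genes named for the size of their change, and not as members of a list, were SLITRK6, PCDH17, SPP1, EDIL3 and UNC5D, all at low levels in the other 9 libraries. SLITRK6, a neurite-regulating membrane protein, had no library above 3 reads in either group at 4 h or with DMSO at 24 h. With FHT-1015 at 24 h it was at 22.0, 22.8 and 29.3 CPM, at least 146-fold above DMSO. PCDH17, a protocadherin, was at most 0.679 CPM in any of the other 9 libraries and at 22.0, 24.2 and 33.1 CPM with FHT-1015 at 24 h. Its interaction was not called without DMSO 4 h replicate 3. EDIL3, an integrin-binding matrix protein, was at most 1.57 CPM elsewhere and at 30.8, 28.1 and 29.4 CPM with FHT-1015 at 24 h. UNC5D, a netrin receptor, was at 23.2, 25.8 and 28.2 CPM there and at most 2.48 CPM elsewhere. EDIL3 left the class under limma-voom, and UNC5D there and without a low-count filter. SPP1 (osteopontin) was at 8.53, 37.8 and 81.2 CPM there and at most 1.05 CPM elsewhere, the widest spread among replicates of these 5 genes.

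Of 27 tested axon guidance ligands and receptors, 7 were late only higher (12.2% of all genes) and 4 sustained higher (5.8%), while 7 were sustained lower (9.44%) and 2 late only lower, a smaller share than the 14.4% of all genes. The tested members of the slit system and some of the ephrin system were higher: SLIT2 by 3.21, ROBO1 by 1.50, ROBO2 by 1.75, EPHA3 by 3.54 and EFNA1 by 2.66 at 24 h, none of them called at 4 h. The ephrin receptor EPHB2 was instead lower, 1.78-fold and then 1.44-fold. The secreted semaphorins SEMA3A and SEMA3C were higher by 2.09 and 1.56 at 4 h and by 4.75 and 2.93 at 24 h. Semaphorin receptors were lower: PLXNC1 went from -1.34 to -4.41, NRP2 from -1.28 to -4.42, and PLXNA1 and PLXND1 from -1.14 and -1.08 to -2.39 and -2.12. NTN4, a netrin of basement membranes, reversed from 4.36-fold lower to 7.21-fold higher. It was at 0.782, 1.06 and 1.81 CPM with DMSO and 0.250, 0.309 and 0.251 CPM with FHT-1015 at 4 h, and at 0.919, 1.17 and 1.73 CPM against 9.55, 8.80 and 8.90 CPM at 24 h.

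Of 18 tested genes of the extracellular matrix, 4 were late only higher (12.2% of all genes), VCAN, COL1A1, COL6A2 and LAMB1, and 4 sustained lower (9.44%). FREM2, a basement membrane protein, was 1.43-fold higher at 4 h and 9.22-fold higher at 24 h, and left the sustained class without DMSO 4 h replicate 1 or 2 or FHT-1015 4 h replicate 1 or 2. The 9 fibroblast markers share COL1A1 with this list, so the 2 sets are not independent. Their summed level was 3.07 to 5.38 CPM in the DMSO libraries, 3.50 to 4.73 CPM with FHT-1015 at 4 h and 14.3 to 17.1 CPM at 24 h. Only 3 of the 9 passed the filter, with COL1A1 and PDGFRA late only higher and LUM late only lower, and FAP had no library above 3 reads. The part of the fibroblast markers in the result was not tested.

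Named late only losses outside the pigment genes, among genes with a mean of at least 5 CPM, were GDPD5, IL16, PLXNA4, STK32A and P2RX7. GDPD5 (chromosome 11, 75434640 to 75525903, minus strand), a glycerophosphodiester phosphodiesterase, was at 36.5, 41.9 and 33.1 CPM with DMSO and 35.7, 42.9 and 39.3 CPM with FHT-1015 at 4 h, ranges that overlap. By 24 h GDPD5 was at 37.5, 43.0 and 34.3 CPM with DMSO and 2.52, 2.46 and 3.14 CPM with FHT-1015, 14.0-fold lower (interaction -3.88 ± 0.19 SE, edgeR adjusted p = 2.35e-09). P2RX7, the ATP-gated channel, was 15.1-fold and STK32A, a kinase, 12.5-fold lower at 24 h. IL16, a cytokine precursor, shares its position with STARD5, and its interaction of -5.58 was -3.98 when the stranded columns were summed. PLXNA4 left the class without a low-count filter, under limma-voom and with a replicate block, and P2RX7 under limma-voom and without FHT-1015 4 h replicate 1.

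Among genes that grew from a small change, MLIP, a lamin-interacting protein, had the lowest interaction of the named genes in that class. It was at 45.0, 50.3 and 48.1 CPM with DMSO and 31.8, 41.7 and 37.0 CPM with FHT-1015 at 4 h, and at 51.3, 51.6 and 43.9 CPM against 1.09, 1.43 and 1.05 CPM at 24 h. ADAMTS6, a secreted metalloprotease, went from 2.84-fold to 46.6-fold higher and SCG2, a granin of secretory granules, from 2.35-fold to 37.1-fold. SCG2 left the sustained class without DMSO 4 h replicate 1 or 2, and MLIP without DMSO 4 h replicate 2 or FHT-1015 4 h replicate 1. The amino acid transporter SLC7A5 went from 2.16-fold to 17.3-fold lower, the largest called interaction among 18 tested genes of the ATF4 stress response, of which 5 were sustained lower (9.44% of all genes) and 3 late only lower (14.4%). Others went up: 2 were sustained higher (5.8%), ATF4 itself and VLDLR, DDIT4 was late only higher, and DDIT3 (CHOP) was 2.14-fold higher at 4 h alone. CHAC1, TRIB3 and NUPR1 of that list were lower by 2.49, 1.25 and 1.49 at 4 h and by 3.39, 2.19 and 3.51 at 24 h.

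Sustained effects with no growth were seen beside SOX10 in FGF9, a growth factor, at 78.7, 91.7 and 101 CPM with DMSO and 7.13, 7.20 and 7.98 CPM with FHT-1015 at 4 h. FGF9 at 24 h was at 83.2, 102 and 124 CPM against 5.32, 9.19 and 11.99 CPM, 11.6-fold lower after 12.2-fold. DLX2, a homeobox factor of neural crest and forebrain, was sustained but had grown, from 26.4-fold to 81.3-fold higher. It was at 0.371 to 0.615 CPM in the 6 DMSO libraries, at 9.22, 11.4 and 17.4 CPM with FHT-1015 at 4 h and at 36.9, 44.5 and 41.6 CPM at 24 h. Its growth between the times was not called without DMSO 4 h replicate 1. Effects that shrank were fewest. ST3GAL5, the synthase of ganglioside GM3, was 11.6-fold lower at 4 h and 2.14-fold lower at 24 h, and PCDH1, a protocadherin, 27.3-fold and 3.10-fold lower. PCDH1 was also lower with DMSO at 24 h than at 4 h (-1.37, edgeR adjusted p = 0.0298). FRMD6 was 3.62-fold higher and then 1.42-fold higher.

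Of 23 tested genes of cholesterol synthesis, 13 were late only lower against 14.4% of all genes, with HMGCS1 at -1.48 and SQLE at -1.43 at 24 h and neither called at 4 h. In all, 15 of the 23 were lower at 24 h (31.4% of all genes) and 3 higher (29.2%). The 3 were TM7SF2, which overlaps VPS51, by 10.2-fold, PMVK by 1.37-fold and SREBF2 by 1.12-fold, none of them called at 4 h. Of 24 tested lysosomal genes, 6 were sustained lower (9.44% of all genes) and 5 late only lower (14.4%). The protease CTSL, which had the largest called interaction of the list, was 1.43-fold and then 5.19-fold lower. Of 18 tested interferon-stimulated and HLA class I genes, 9 were not called at all (29.5% of all genes), 3 were sustained lower (9.44%), 3 late only lower (14.4%), 2 late only higher (12.2%) and 1 reversing. TAP1, the peptide transporter of antigen presentation, was 1.96-fold lower and then 2.41-fold higher, HLA-C was late only higher by 0.80, and B2M late only lower by 0.56.

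**Figure D4:**
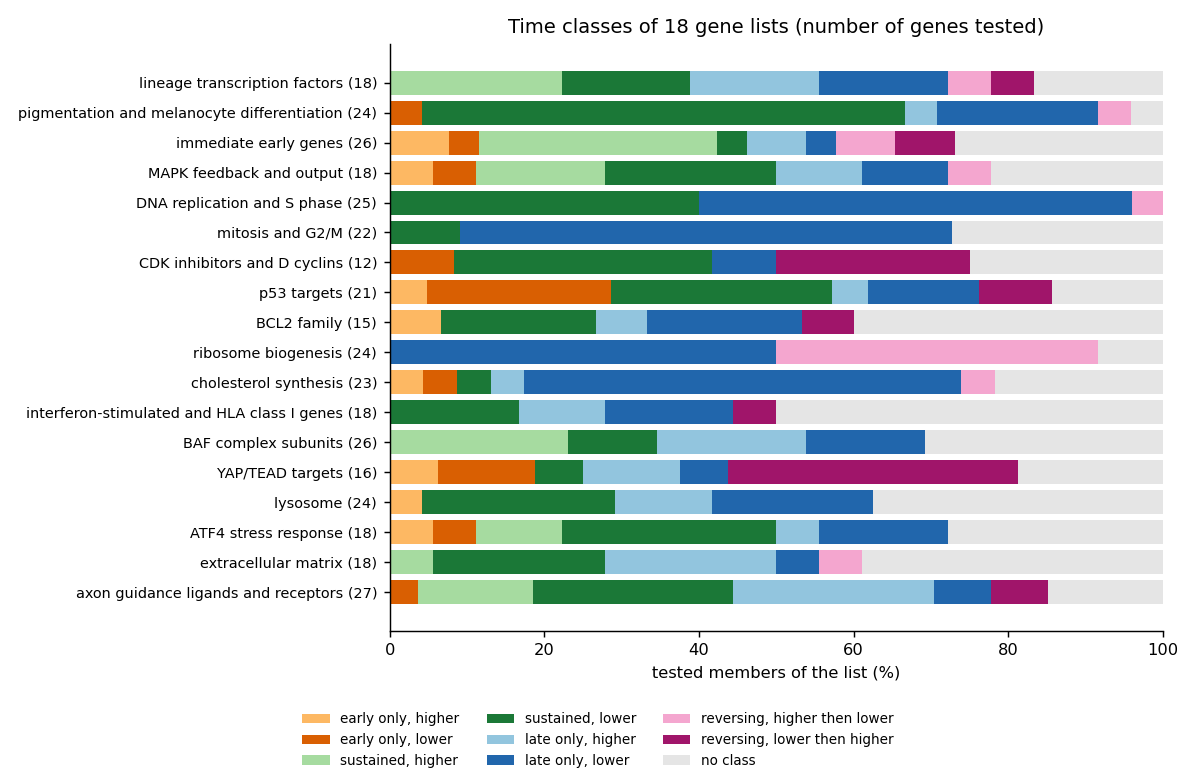
Each bar is a gene list, with its number of tested genes, split by the share of those genes in each time class. Late only lower dominates DNA replication (14 of 25) and mitosis (14 of 22), sustained lower dominates pigmentation (15 of 24), and the reversing classes are widest in ribosome biogenesis (10 of 24) and YAP/TEAD targets (6 of 16).

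The classes differed in the features below, given here as descriptions. The DMSO level is not independent of the sorting, because the DMSO libraries enter the fold changes and the low-count filter. A gene can also pass that filter through its FHT-1015 libraries alone. The median level over the 6 DMSO libraries was 52.99 CPM in late only lower genes, 40.5 CPM in sustained lower, 8.27 CPM in late only higher and 13.2 CPM in sustained higher genes, beside 17.3 CPM over all genes tested. Levels in CPM are not per length, and the power to call a gene rises with its count. The median span on the genome was 45.3 kb in genes that went from lower to higher and 40.4 kb in sustained lower genes, beside 26.6 kb over all genes. Genes whose symbol starts with ZNF, encoding zinc finger proteins, made up 7.58% of sustained higher and 5.92% of early only higher genes, 0.675% of sustained lower and 3.05% of all genes tested.

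Histone genes, a group taken by symbol after their values were seen, were nearly all higher at 24 h. Of 26 tested genes with a HIST symbol, 23 were higher (29.2% of all genes) and 1 lower (31.4%) at 24 h, 1 was higher (12.9%) and 1 lower (16.7%) at 4 h, and 18 were late only higher against 12.2% of all genes. Their median log2 fold change was 0.19 at 4 h and 2.52 at 24 h. Among examples with large changes, HIST1H2AC went from 0.33 to 4.72, HIST2H2BE from -0.04 to 4.35 and HIST1H1C from 0.04 to 3.27. Histone genes are near-identical copies, so reads may be split or lost between them, and the libraries were made from RNA captured on poly-T beads, while most histone transcripts of S phase lack a poly-A tail. Whether the reads come from polyadenylated histone transcripts was not tested.

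The same interaction was compared with that of FHT-1015 in the uveal melanoma lines MP41 and MEL202 and of IDE196 in 92-1, each with its own DMSO libraries. By edgeR, the time interaction differed between 92-1 and MP41 in 1013 of 17458 genes (5.8%), between 92-1 and MEL202 in 124 of 17441 (0.711%), and between FHT-1015 and IDE196 in 3219 of 16917 (19%). Replicates were more variable in the other lines, with a biological coefficient of variation of 0.117 in the 92-1 FHT-1015 libraries, 0.217 in MP41, 0.294 in MEL202 and 0.112 in the IDE196 experiment, so the counts do not rank the experiments by likeness. Without MP41 DMSO 24 h replicate 3 the count against MP41 was 3889. Against MEL202 it was between 77 and 82 without 92-1 DMSO 4 h replicate 2, 92-1 DMSO 24 h replicate 2, 92-1 FHT-1015 24 h replicate 2 or 3 or MEL202 FHT-1015 24 h replicate 2, and 190 without MEL202 FHT-1015 4 h replicate 2.

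SOX10 timing differed between the lines. In MP41 its effect grew from -2.26 at 4 h to -4.74 at 24 h and in MEL202 from -3.04 to -5.43, while in 92-1 it was -4.94 and -4.69. The interactions were -2.47 in MP41, -2.40 in MEL202 and 0.25 in 92-1, and the difference from 92-1 was called in both (2.78 ± 0.37 SE, edgeR adjusted p = 4.03e-05, and 2.67 ± 0.39 SE, edgeR adjusted p = 0.000708). All 3 lines ended with a loss of over 4 log2 units. TYR showed the reverse, with its interaction of -3.87 in 92-1 beside -1.60 in MP41 and -2.08 in MEL202.

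Of the 68 named genes, 29 differed from MP41 (5.8% of all genes did), 17 from MEL202 (0.711%) and 10 from both lines. Most of these genes were named for large changes in 92-1, so the counts describe them and support nothing about the lines. In GEM, NTN4 and BCL2L11, which went from lower to higher in 92-1, the interaction was larger in 92-1: GEM had 5.23 beside 1.22 in MP41 and 1.81 in MEL202, NTN4 4.98 beside 1.32 and 1.14, and BCL2L11 2.50 beside 0.47 and -0.43. The median 4 h and 24 h effects of the higher-then-lower genes were 0.17 and -0.35 in MP41 and 0.24 and -0.65 in MEL202, against 0.42 and -0.64 in 92-1 over the genes tested in both. These genes were sorted by their 92-1 effects, which favours larger values in 92-1. The medians therefore do not measure a difference between the lines.

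With IDE196 in the same line, 54 of the 68 named genes differed in their interaction, as did 19% of all genes, again as a description of genes named on FHT-1015 values. In 9 the interactions were called with opposite signs: CGN, DCT, FRMD6, GDPD5, IL16, MITF, MLIP, SNAI2 and STK32A. SNAI2 had effects of -0.01 at 4 h and 0.73 at 24 h with IDE196, and MLIP of 0.36 and 1.82, where FHT-1015 took it from -0.38 to -5.38. EGR1, early only higher with FHT-1015, was lower with IDE196 at both times, by 4.00 and 4.07.

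**Figure D5:**
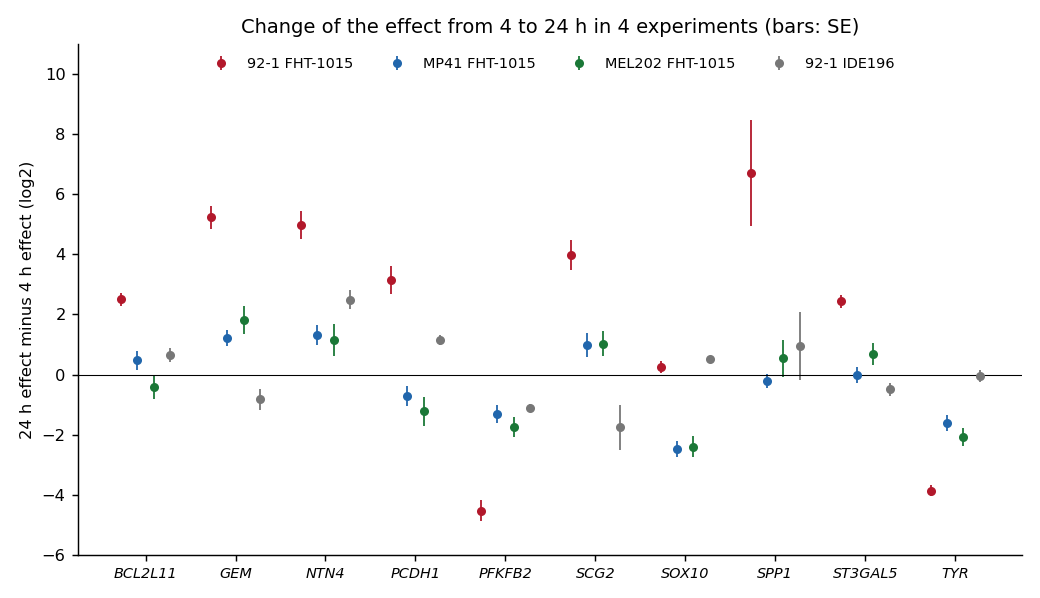
The 10 named genes whose interaction differed between 92-1 and both other lines are shown with the 24 h effect minus the 4 h effect (log2, points) and its SE (bars) in 4 experiments of 12 libraries each. SOX10 lies near 0 in 92-1 (0.25) and near -2.4 in MP41 and MEL202, and GEM and NTN4 are highest in 92-1 (5.23 and 4.98).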

How the data were processed

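RNA sequencing of 12 samples of line 92-1 was used, with 36 further samples for comparison. Per the labels' protocols, RNA from frozen cell pellets was captured on poly-T beads and made into libraries with a kit that the labels do not call stranded. The authors deposited raw read counts per gene, 3 columns a sample: reads of either strand (used here) and of each strand, as STAR writes them. The first strand held 49.7% to 49.9% of the stranded reads in the 12 samples. Per the submitters' processing notes the build was hg38 and limma was used; the aligner version, annotation and other steps are not given in the sources used here. The 4 summary rows, which name no gene, and the spike-ins were left out of library sizes and tests; reads assigned to more than 1 gene were 10.9% to 11.6% per library, and those outside genes 4.04% to 6.98%. Symbols and positions were taken from GENCODE release 29 by unversioned identifier, which matched 58597 of 58870 genes. Promoters are from RefSeq.

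Reads in genes were 11991337 to 24005016 per library. They are reads and not independent molecules, so floors (3 reads per library) cover counting error only. The 12 libraries were fitted with edgeR 4.0.16 in R 4.3.3 (TMM, filterByExpr defaults, 4 group means, quasi-likelihood F-tests, Benjamini-Hochberg adjustment over all genes tested, called at 0.05). SE is the absolute log2 fold change over the square root of F. Differences between experiments were contrasts in fits of 24 samples. A fold is given from the fitted log2 fold change, or as a bound where no library of a group was above the floor. Whether replicates came from separate cultures is given only by the label biological replicate. The scripts were tested on simulated data.

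Genes named are SMARCA4, SMARCA2, MITF and SOX10, then those with the largest changes per class among protein-coding genes with a mean of at least 5 CPM, the same class on the stranded sum, and every treated library beyond every DMSO library where called, then the called member of each gene list with the largest interaction, and for 4 lists the 3 largest. Other genes given are members of the lists, except the histone genes, which were taken by symbol and chosen after their values were seen. The experiment, lists and tests were chosen with earlier results of these data known. Alternatives were relative log expression or library size scaling, no low-count filter, DESeq2 1.42.0, limma 3.58.1 (voom), the stranded sum, a replicate block, a joint fit of 92-1, stricter calls, and each library left out. Some genes that the rule or the lists hold are not reported here.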

Additional observations from a re-analysis of the deposited data

Results flagged for a closer look

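The effect of FHT-1015 in 92-1 differed between the 2 times, by a test of the difference itself, in 3317 genes whose effect was higher at 24 h and 3816 whose effect was lower. The time interaction differed, by the same kind of test, between 92-1 and MP41 in 1013 genes, between 92-1 and MEL202 in 124, and between FHT-1015 and IDE196 in 3219.

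For 10 named genes the difference was called against both other lines. In log2 units, as 92-1 minus MP41 and then 92-1 minus MEL202, it was 2.78 and 2.67 for SOX10, -2.22 and -1.75 for TYR, 4.06 and 3.46 for GEM, and 3.72 and 3.87 for NTN4. It was 2.09 and 2.96 for BCL2L11, 3.94 and 4.40 for PCDH1, 2.53 and 1.80 for ST3GAL5, 3.05 and 2.99 for SCG2, and 6.98 and 6.22 for SPP1. For PFKFB2, which overlaps YOD1 and whose 92-1 interaction shrinks from -4.53 to -2.75 on the stranded sum, it was -3.13 and -2.73.

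In 9 named genes the interaction was called with opposite signs with the 2 drugs in 92-1. The interaction with FHT-1015 minus that with IDE196 was 5.82 for CGN, -8.24 for DCT, -3.07 for FRMD6, -4.83 for GDPD5 and -7.78 for IL16. It was -1.99 for MITF, -6.46 for MLIP, -3.76 for SNAI2 and -5.77 for STK32A. No group had more than 3 samples, so no sample was tested as standing apart from its group.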

How the results depend on the processing

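The interaction counts stayed within 1.5 times under each of the 8 alternatives and 12 leave-out fits, with 2880 to 3311 genes higher and 3474 to 3856 lower when a library was left out. Counts that moved further under limma-voom were 4 h higher (3124), early only higher (532), grown (1313), shrunk (250), higher then lower (815) and lower then higher (718). At adjusted p under 0.01, early only higher held 176, sustained higher 481, sustained lower 977, grown 436, shrunk 69, higher then lower 209 and lower then higher 217. With a minimum absolute log2 fold change of 1, early only held 82 higher and 200 lower, late only 1120 and 969, sustained 172 and 395, grown 160, shrunk 14, higher then lower 24, lower then higher 58, and the genes of unresolved timing 1456. Leaving out 1 library gave 282 to 475 higher-then-lower genes. DMSO time differences were 243 without the filter, 150 with DESeq2, 368 with limma-voom and 16 to 81 when a library was left out. The difference from MP41 ran from 756 to 3889 and that from MEL202 from 77 to 190 when a library was left out, and that from MEL202 was 196 without the filter. The cause of these shifts was not tested. Of a class's genes, 75% to 99.9% stayed in it under the alternatives and 58.3% to 95.3% in the leave-out fits.

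Same-numbered libraries correlated above 0.1 in 8 of 18 pairs (-0.26 to 0.33), and 5 of 12 libraries correlated best with their own number. The groups differed in this. Same-numbered libraries of DMSO 24 h and FHT-1015 4 h correlated at 0.31, 0.12 and 0.16, those of DMSO 4 h and FHT-1015 24 h at -0.16, -0.10 and -0.26. Whether the numbers pair some of the samples is thus not settled, and the main fit did not use them. With a replicate block, 3565 interactions were higher and 4033 lower, the DMSO count was 101, 565 genes were higher then lower, 520 lower then higher, and the differences from MP41 and MEL202 were 1190 and 145. Over the 68 named genes, 541 of 544 interaction values kept direction and call under the alternatives, and 805 of 816 in the leave-out fits. FGF9, not called, ranged from -0.22 to 0.34 and changed sign (-0.02, -0.06 and -0.22) without DMSO 4 h replicate 3, DMSO 24 h replicate 1 or FHT-1015 24 h replicate 3. PIK3IP1 lost its interaction call in 5 leave-out fits. With 3 replicates, the median SE of an interaction was 0.20, which limits what is called among small changes.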
